A study of Mus musculus with 8 samples.

Results

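The 39 genes described here are type I interferon-stimulated genes, taken by symbol from a list of nucleic acid sensors, signalling factors and antiviral effectors. The oligoadenylate synthetase, guanylate-binding protein and immunity-related GTPase families were left out of the list. All 39 were among the 24481 gene rows of the deposited table, and all 39 were among the 16889 genes with a mean linear value of at least 10 that entered the tests. The samples came from wild-type C57BL/6J female mice, whose stomachs were collected 3 days after adrenalectomy, the removal of the adrenal glands and with them of most circulating glucocorticoid, or 3 days after a sham operation. Each group held 4 samples, sequenced as RNA from the stomach, and the labels do not give the age of the mice or say that each sample was a separate animal, so each p-value reflects sample-to-sample spread that may be technical. Values are the authors' normalized log2 values, made with a transformation that is not named, and the depth of each sample is unknown.

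Type I interferons are secreted when a cell senses foreign or misplaced nucleic acid. They bind the receptor IFNAR1-IFNAR2, the kinases JAK1 and TYK2 are activated, and STAT2 and IRF9 act in a complex, ISGF3, that binds the interferon-stimulated response element in the promoters of target genes. The targets include the sensors and transcription factors of the pathway itself, so the response feeds back on its own components. Many of them, among them Irf1, Bst2 and Ube2l6, also respond to interferon gamma, and glucocorticoids are known to restrain interferon and inflammatory gene expression in many cells.

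The promoter sequences below show the letters that the response element takes in 4 members chosen because they hold it and had larger differences. Beside them stand Irf7, which had the second largest difference of the 39 and no match, and the 2 members that passed the test over all genes, also without a match. They are the 250 bases before the RefSeq gene start, 5′ to 3′ on the strand of the gene, in build GRCm38.p6, and capitals mark each match to GAAANNGAAA on either strand, a core of the element.
Isg15, chr4:156200819-156201068, minus strand: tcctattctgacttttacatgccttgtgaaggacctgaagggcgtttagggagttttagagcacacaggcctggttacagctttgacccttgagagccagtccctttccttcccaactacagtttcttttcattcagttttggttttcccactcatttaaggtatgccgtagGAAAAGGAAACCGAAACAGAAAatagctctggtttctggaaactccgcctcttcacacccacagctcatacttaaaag
Ifit1, chr19:34640639-34640888, plus strand: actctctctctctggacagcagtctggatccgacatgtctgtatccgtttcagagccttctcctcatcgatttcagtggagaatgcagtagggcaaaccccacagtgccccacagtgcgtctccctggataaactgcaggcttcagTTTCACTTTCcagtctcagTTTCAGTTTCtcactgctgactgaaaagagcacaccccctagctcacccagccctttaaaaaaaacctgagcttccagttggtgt
Ifit3, chr19:34583279-34583528, plus strand: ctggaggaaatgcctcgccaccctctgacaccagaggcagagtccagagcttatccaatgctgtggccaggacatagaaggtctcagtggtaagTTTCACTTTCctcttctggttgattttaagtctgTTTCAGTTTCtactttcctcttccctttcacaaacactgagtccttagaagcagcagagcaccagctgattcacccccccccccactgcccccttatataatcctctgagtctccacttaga
Bst2, chr8:71537473-71537722, minus strand: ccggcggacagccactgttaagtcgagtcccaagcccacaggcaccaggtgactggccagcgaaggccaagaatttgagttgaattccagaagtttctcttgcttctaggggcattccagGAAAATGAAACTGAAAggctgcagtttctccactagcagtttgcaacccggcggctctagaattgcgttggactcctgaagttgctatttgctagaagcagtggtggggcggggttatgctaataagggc
Irf7, chr7:141266425-141266674, minus strand: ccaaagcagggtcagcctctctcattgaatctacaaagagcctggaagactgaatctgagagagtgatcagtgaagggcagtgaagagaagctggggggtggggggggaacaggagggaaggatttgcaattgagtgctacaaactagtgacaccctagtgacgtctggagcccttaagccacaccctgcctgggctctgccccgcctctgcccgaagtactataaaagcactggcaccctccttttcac
Ube2l6, chr2:84798578-84798827, plus strand: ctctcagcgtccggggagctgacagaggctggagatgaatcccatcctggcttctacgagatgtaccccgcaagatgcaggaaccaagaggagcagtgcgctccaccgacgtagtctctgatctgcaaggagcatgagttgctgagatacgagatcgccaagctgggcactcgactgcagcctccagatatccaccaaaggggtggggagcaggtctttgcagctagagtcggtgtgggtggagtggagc
Lgals3bp, chr11:118401960-118402209, minus strand: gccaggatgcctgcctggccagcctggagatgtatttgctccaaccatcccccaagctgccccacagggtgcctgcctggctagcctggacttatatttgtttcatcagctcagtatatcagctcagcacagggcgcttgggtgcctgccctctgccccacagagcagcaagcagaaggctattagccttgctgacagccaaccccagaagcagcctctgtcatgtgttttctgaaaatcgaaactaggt

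In Isg15 3 matches ran into each other, the farthest starting at -78 and the nearest at -66 from the gene start, and in Bst2 2 matches overlapped at -130 and -124. Ifit1 held 2 separate matches at -104 and -85, and Ifit3 held 2 at -156 and -122. Of the 39 members, 30 had a RefSeq promoter window, which covers 250 bases before and 50 after the start, and 12 of the 30 (40%) held the motif, against 3.99% of the 27025 genes with a window. These were Isg15, Ifit1, Ifit3, Bst2, Ddx60, Stat2, Rsad2, Trim30a, Ifih1, Ddx58, Ifitm3 and Eif2ak2. The motif TTCNNNGAA, which STAT dimers bind, reads the same on both strands and was present in 7 of the 30 (23.3%) against 9.55% of all genes, and in 2 of the 7, Bst2 and Ifitm3, a match overlapped GAAANNGAAA. Irf7, Ube2l6 and Lgals3bp held neither motif in this window, which says only that these letters are not there.

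As a check of the tissue, the gastric genes Gkn1, Tff1 and Atp4a ranked 2, 6 and 7 by mean linear value among tested genes. Other stomach markers ranked lower, Ghrl at 87, Muc6 at 578 and Gast at 12309. None of 12 stomach markers was called. RNA of neighbouring tissues varied between samples. The mean log2 value of 13 liver markers was 14.42, 11.79, 10.61 and 9.42 in adrenalectomy replicates 1 to 4. In sham replicates 1 to 4 it was 9.30, 9.38, 9.38 and 11.68. The mean of 14 skeletal muscle markers was 9.51 and 9.50 in sham replicates 2 and 3 against 6.99 to 7.35 in the other 6 samples. All 14 squamous markers had a lower mean after adrenalectomy, none was called, and their mean was 11.02, 12.78, 12.78 and 11.67 in sham and 11.48, 12.01, 10.27 and 11.37 in adrenalectomy samples. Adrenalectomy replicate 4, on which several values below depend, stood at 9.42 for liver and 7.07 for skeletal muscle. Some stomach markers varied as well. Gast was at 8.47, 6.91, 6.70 and 8.86 in adrenalectomy replicates 1 to 4 and at 9, 6.66, 8.78 and 6.53 in sham replicates. Muc6 was at 13.99 in adrenalectomy replicate 4 and 14.43 to 14.61 in the rest of its group, with 13.75 to 14.64 in sham. Of 15 glucocorticoid-induced genes, a check of the operation, 7 fell at an adjusted p under 0.05 in limma and 1 had a higher mean. Among the 16889 tested genes, 132 were called lower. The mean log2 value of the 15 was 11.91 to 12.15 in sham and 11.57 to 11.64 in adrenalectomy samples.

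The interferon-stimulated genes stood higher after adrenalectomy as a group, by small amounts that differed between the 4 samples. All 39 had a higher mean after adrenalectomy, against 49.5% of tested genes. The median log2 difference was 0.36 (1.28-fold), against -0.00088 over all tested genes, and it ranged from 0.01 for Trafd1 to 0.94 for Isg15. The groups did not overlap for 25 of the 39 with adrenalectomy higher, against 6.30% of tested genes, and 30 had an unadjusted p under 0.05 with a higher mean, against 9.73%. Over all genes tested, 2 rose and none fell at an adjusted p under 0.05 in limma, Ube2l6 and Lgals3bp, against 0.930% of tested genes called higher. A further 10 had an adjusted p between 0.05 and 0.1, the nearest being Irf9 at 0.0504.

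**Figure D1:**
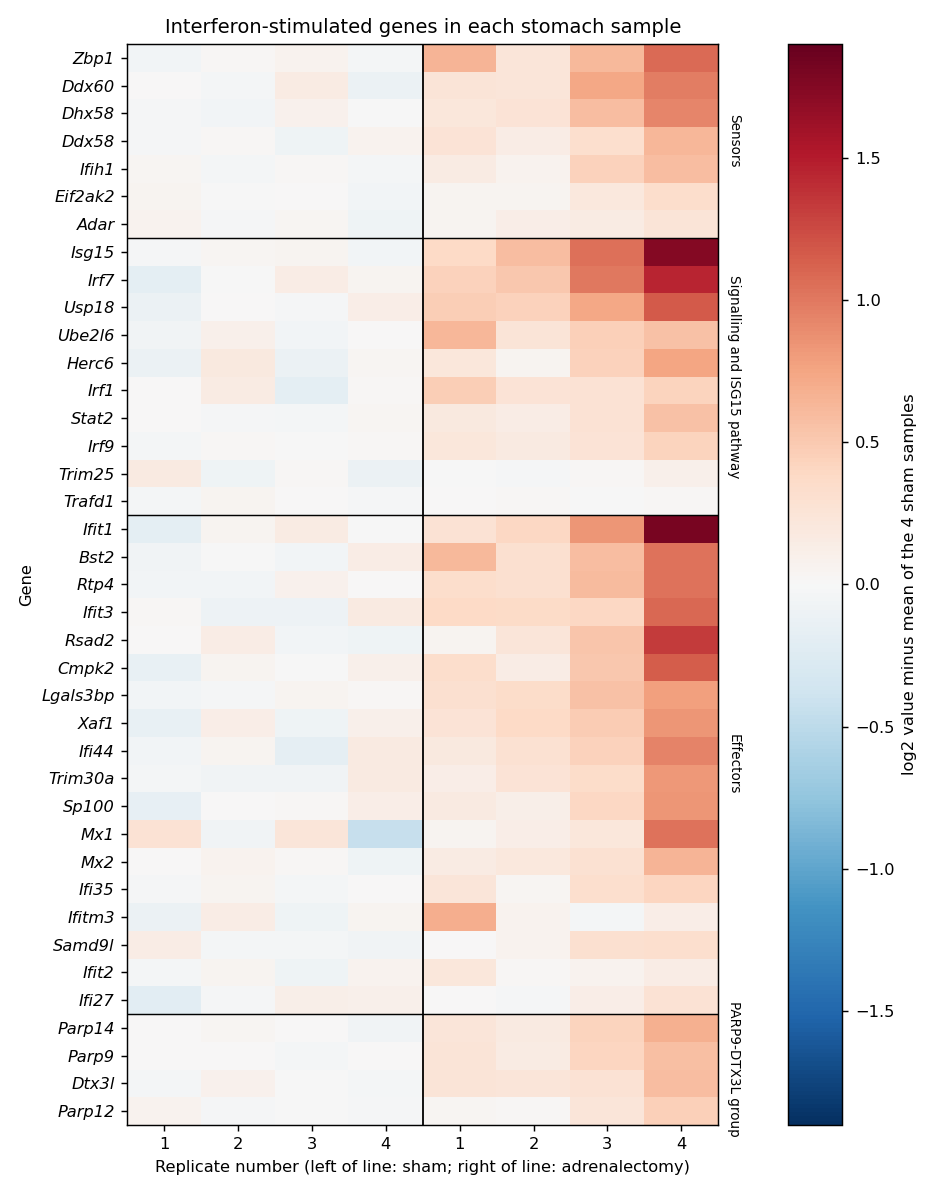
Each row is 1 of the 39 genes, grouped by role, and each column 1 stomach sample, and colour gives the log2 value minus the mean of the 4 sham samples. The sham columns are pale, adrenalectomy replicates 1 and 2 are modestly raised in most rows, and replicate 4 is darkest in 33 of the 39.

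Averaged over the 39 genes, the sham samples stood at 10.47, 10.52, 10.50 and 10.50 in replicates 1 to 4, and the adrenalectomy samples at 10.75, 10.69, 10.90 and 11.24. The 2 groups did not overlap on this mean. Adrenalectomy replicates 2 and 1 were nearest to the sham samples, replicate 3 was farther, and replicate 4 was farthest. Adrenalectomy replicate 4 was the highest of the 8 samples for 33 of the 39 genes, against 12.6% of tested genes. Replicate 3 was the second highest of its group for 32, against 4043 of the 16889 tested genes. Each adrenalectomy sample nevertheless exceeded the highest sham sample for most members. Replicate 1 did so for 30 (23.9% of tested genes), replicate 2 for 28 (18.9%), replicate 3 for 34 (22.3%) and replicate 4 for 36 (22.8%). The standard deviation was larger after adrenalectomy than after sham for 35 of the 39, against 37.8% of tested genes, with medians of 0.24 and 0.077.

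**Figure D2:**
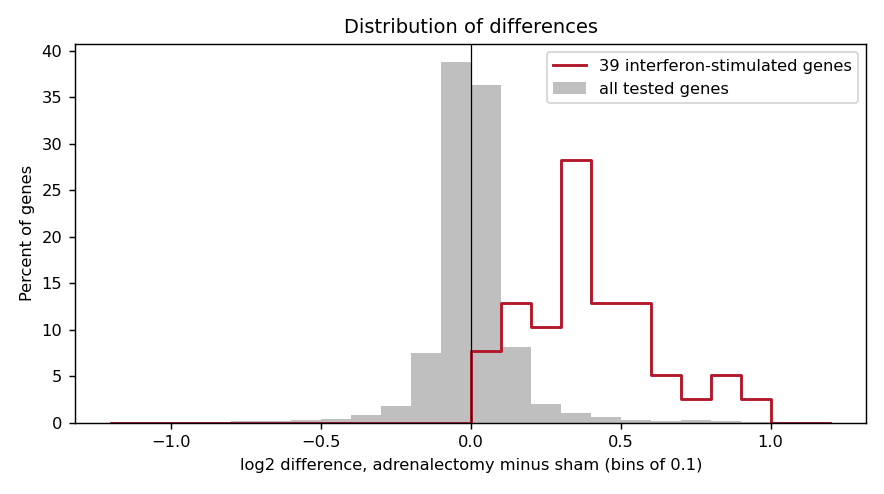
Percent of genes in each bin of 0.1 of the log2 difference, adrenalectomy minus sham, for all 16889 tested genes (grey bars) and for the 39 interferon-stimulated genes (red line). The tested genes centre on 0 and the interferon-stimulated genes lie above it with a median of 0.36, and 74 tested genes fall outside the range drawn.

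Among the 7 sensors none passed the test over all genes, and the median log2 difference was 0.33. The groups did not overlap for 6, with adrenalectomy higher, against 6.30% of tested genes. Zbp1, which recognises nucleic acid in the left-handed Z form and can start cell death, had log2 values of 7.82, 7.89, 7.94 and 7.84 in sham and 8.52, 8.10, 8.49 and 8.95 in adrenalectomy samples. Its groups were apart, with replicate 2 the lowest adrenalectomy sample, and the log2 difference was 0.64 ± 0.15 SE (1.56-fold, adjusted p = 0.0817 in limma). Ddx58 encodes RIG-I, a helicase that detects viral RNA ends. It stood at 10.56, 10.61, 10.51 and 10.65 in sham and at 10.84, 10.72, 10.90 and 11.21 in adrenalectomy samples (log2 difference 0.33 ± 0.096 SE, adjusted p = 0.123). The groups lay apart by a narrow margin, and adrenalectomy replicate 4 stood well above the rest.

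Dhx58 encodes LGP2, a helicase that modulates RIG-I and MDA5. It stood at 8.95, 8.92, 9.06 and 8.97 in sham and at 9.19, 9.23, 9.56 and 9.91 in adrenalectomy samples, so that replicates 3 and 4 were clearly above replicates 1 and 2 (log2 difference 0.50 ± 0.15 SE, adjusted p = 0.130). Eif2ak2, the kinase PKR that halts translation on double-stranded RNA, had the largest p of the sensors. Its values were 11.74, 11.68, 11.70 and 11.64 in sham and 11.75, 11.75, 11.89 and 12.03 in adrenalectomy samples. Replicates 1 and 2 barely cleared the sham samples (log2 difference 0.16 ± 0.063 SE, adjusted p = 0.221). Ifih1, which encodes MDA5, the sensor of long double-stranded RNA, had a log2 difference of 0.31, Ddx60, a helicase linked to RIG-I signalling, 0.54, and Adar, an editing enzyme that keeps cellular double-stranded RNA from being sensed, 0.15. Adar makes an interferon-induced and a constitutive protein, which a value per gene cannot separate, and it was the only sensor of the 7 whose groups overlapped.

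The signalling members divided into genes that stood higher and genes that hardly differed. Irf9, the DNA-binding part of ISGF3, had log2 values of 10.92, 10.98, 10.94 and 10.97 in sham and 11.17, 11.12, 11.22 and 11.37 in adrenalectomy samples. The sham values were tight and all 4 adrenalectomy values lay above them (log2 difference 0.27 ± 0.052 SE, 1.20-fold, adjusted p = 0.0504). Stat2, its partner, stood at 11.90, 11.87, 11.85 and 11.93 in sham and 12.08, 12.03, 12.17 and 12.44 in adrenalectomy samples (0.29 ± 0.082 SE, adjusted p = 0.116), again without overlap and with replicate 4 highest. Irf7, which amplifies interferon production, had a log2 difference of 0.85 (1.80-fold, adjusted p = 0.0884), and its values of 10.56 to 10.88 in sham and 11.18 to 12.20 in adrenalectomy samples did not overlap.

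Irf1, a factor induced by both interferon types, showed another order of samples. It stood at 11.11, 11.25, 10.92 and 11.12 in sham and at 11.57, 11.36, 11.38 and 11.53 in adrenalectomy samples, with replicate 1 highest (log2 difference 0.36 ± 0.076 SE, adjusted p = 0.0611). Trim25, a ubiquitin ligase that activates RIG-I, stood at 14.02, 13.77, 13.87 and 13.73 in sham and at 13.84, 13.83, 13.87 and 13.95 in adrenalectomy samples, so that the groups overlapped fully (0.02 ± 0.062 SE, adjusted p = 0.861). Trafd1, a feedback inhibitor of innate signalling, differed by 0.01 ± 0.024 SE (adjusted p = 0.836). Trim25 and Trafd1 were the 2 members whose highest sample was a sham sample. They were also the 2 whose sign turned in any of 21 other settings of the analysis.

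ISG15 is a ubiquitin-like protein that is attached to other proteins by an E1, the E2 enzyme UBE2L6 and, in mice, the ligase HERC6, and removed by USP18, which also damps signalling at the receptor. Isg15 had the largest difference of the 39 genes. Its log2 values were 9.32, 9.39, 9.40 and 9.29 in sham and 9.73, 9.94, 10.39 and 11.09 in adrenalectomy samples. The sham samples were close together, whereas the adrenalectomy samples, all higher, spread over more than 1 log2 unit (log2 difference 0.94 ± 0.26 SE, 1.92-fold, adjusted p = 0.110). Ube2l6 rose over all genes tested, from 9.58, 9.75, 9.59 and 9.66 in sham to 10.28, 9.89, 10.10 and 10.21 in adrenalectomy samples (0.47 ± 0.084 SE, 1.39-fold, adjusted p = 0.0398). Here replicate 1 was the highest, and replicate 4 did not stand apart.

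The call of Ube2l6 held in 9 of 21 other settings, with adjusted p-values of 0.0304 to 0.358, and was lost without sham replicate 2, 3 or 4 and without adrenalectomy replicate 1, 3 or 4. Its log2 difference stayed between 0.42 and 0.55 in all of them. Usp18 stood at 8.97, 9.08, 9.06 and 9.21 in sham and at 9.54, 9.52, 9.81 and 10.25 in adrenalectomy samples (0.70 ± 0.16 SE, 1.63-fold, adjusted p = 0.0667), and the groups were well apart. Herc6 differed by 0.36 (adjusted p = 0.235), and its groups overlapped, since adrenalectomy replicate 2 at 9.34 lay below sham replicate 2 at 9.48.

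The 18 effectors had a median log2 difference of 0.43, or 0.26 without adrenalectomy replicate 4. The groups did not overlap for 9, with adrenalectomy higher, against 6.30% of tested genes. Of the 18, 1 passed the test over all genes, against 0.930% of tested genes called higher. This was Lgals3bp, which encodes a secreted galectin-binding glycoprotein. Its log2 values were 13.76, 13.80, 13.86 and 13.84 in sham and 14.12, 14.16, 14.37 and 14.59 in adrenalectomy samples, a rise of 0.49 ± 0.097 SE (1.41-fold, adjusted p = 0.0499). The groups were clearly apart, but the adjusted p lay at the threshold. The call held in 4 of 21 other settings, with adjusted p-values of 0.0338 to 0.355, and was lost with any 1 sample of either group left out, where the log2 difference was 0.40 to 0.56.

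Bst2 encodes tetherin, which holds budding virus particles on the cell surface. It stood at 10.09, 10.15, 10.10 and 10.30 in sham and at 10.77, 10.46, 10.75 and 11.19 in adrenalectomy samples (log2 difference 0.63 ± 0.14 SE, 1.55-fold, adjusted p = 0.0615). Xaf1, a proapoptotic factor, stood at 8.93, 9.19, 8.98 and 9.17 in sham and at 9.32, 9.44, 9.55 and 9.90 in adrenalectomy samples (0.48 ± 0.13 SE, adjusted p = 0.0967). In both genes the groups lay apart and replicate 4 was highest. Rtp4, a membrane protein related to receptor transporters, differed by 0.57 (adjusted p = 0.0984) and Ifi44 by 0.46 (adjusted p = 0.175), also without overlap.

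The IFIT proteins bind viral RNA and block its translation, and their genes differed unequally. Ifit1 had a log2 difference of 0.83 (1.78-fold, adjusted p = 0.196), with values of 9.19 to 9.52 in sham samples and 9.65, 9.77, 10.21 and 11.17 in adrenalectomy replicates 1 to 4. Ifit3 differed by 0.56 (adjusted p = 0.125), with adrenalectomy values of 10.08, 10.06, 10.10 and 10.79. Ifit2 differed by 0.11 (adjusted p = 0.327) and its groups overlapped. Ifit1 and Ifit3 have close paralogs beside them, which makes the division of their reads uncertain, and replicate 4 stood apart for both and not for Ifit2, where it was at 9.02 against 8.91 to 9.10.

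Rsad2, which encodes viperin, an enzyme that makes a chain-terminating nucleotide, and its neighbour Cmpk2, a nucleotide kinase, both differed by 0.54 (adjusted p = 0.283 and 0.195). Without adrenalectomy replicate 4 the log2 difference was 0.27 for Rsad2 and 0.33 for Cmpk2. Rsad2 reached 10.77 in adrenalectomy replicate 4, and its replicate 1 at 9.49 lay within the sham range of 9.35 to 9.57. The dynamin-like Mx proteins block viral ribonucleoproteins, but the RefSeq annotation of C57BL/6J lists both Mx1 and Mx2 as transcribed pseudogenes. Mx1 stood at 10.71, 10.36, 10.67 and 10 in sham and at 10.49, 10.56, 10.65 and 11.47 in adrenalectomy samples, so that only replicate 4 exceeded the sham samples (0.36 ± 0.24 SE, adjusted p = 0.447). Mx2 differed by 0.32 (adjusted p = 0.153) without overlap.

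Among the other effectors, Trim30a, a TRIM family ligase, differed by 0.40, Sp100, a nuclear body protein, by 0.38, Ifi35 by 0.25, Ifitm3, which blocks fusion of entering virus, by 0.21, and Samd9l, a translation inhibitor, by 0.17. Their groups overlapped and their adjusted p-values were 0.134 to 0.469. Ifitm3 reached 12.27 in adrenalectomy replicate 1, where the liver markers were highest, while the remaining adrenalectomy values were 11.54 to 11.71. Its log2 difference was 0.04 in a fit that also held the liver score, and the part of liver RNA in its level was not tested further. Ifi27 had the largest p of the effectors, with 12.48, 12.66, 12.79 and 12.78 in sham and 12.69, 12.65, 12.80 and 12.96 in adrenalectomy samples (0.10 ± 0.088 SE, adjusted p = 0.571).

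PARP9 and DTX3L form a complex that joins ADP-ribosylation to ubiquitin transfer and strengthens interferon signalling, and PARP12 and PARP14 are interferon-induced ADP-ribosyltransferases. None of the 4 genes passed over all genes tested. Dtx3l stood at 10.90, 11.02, 10.94 and 10.90 in sham and at 11.19, 11.17, 11.21 and 11.53 in adrenalectomy samples (log2 difference 0.33 ± 0.080 SE, adjusted p = 0.0814). Parp9 stood at 11.05, 11.05, 11.00 and 11.05 in sham and at 11.28, 11.20, 11.44 and 11.61 in adrenalectomy samples (0.35 ± 0.080 SE, adjusted p = 0.0766). The 2 genes overlap in the RefSeq annotation. Because the strand setting of the counting is not given in the sources used here, their values may share reads. In all, 16 of the 39 members overlap another gene in that annotation, Isg15, Usp18 and Stat2 among them, and the same limit holds for these.

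Parp14 stood at 11.37, 11.39, 11.37 and 11.29 in sham and at 11.58, 11.52, 11.78 and 12.03 in adrenalectomy samples (0.37 ± 0.10 SE, adjusted p = 0.109). Dtx3l, Parp9 and Parp14 each showed groups that lay apart. Parp12 stood at 11.57, 11.48, 11.50 and 11.48 in sham and at 11.55, 11.53, 11.74 and 11.96 in adrenalectomy samples (0.19 ± 0.090 SE, adjusted p = 0.296), and adrenalectomy replicates 1 and 2 fell within the sham range.

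Adrenalectomy replicate 4 carried part of the difference. Its log2 value exceeded the mean of the other 3 adrenalectomy samples for 38 of the 39 genes, by a median of 0.41, the exception being Ifitm3. The excess was 1.30 for Ifit1, 1.07 for Isg15 and 1.06 for Rsad2. Without replicate 4 the median log2 difference over the 39 genes was 0.25 (1.19-fold), 38 still had a higher mean, and Trim25 was at -0.0010. Without it the groups did not overlap for 25 members, against 7.58% of tested genes, and 29 had an unadjusted p under 0.05 with a higher mean, against 7.60%. None passed over all genes tested without it, against 0.166% of tested genes called higher, and the smallest adjusted p in limma was 0.0660, for Dtx3l.

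The standard errors of many members shrank together with the differences. The log2 difference of Isg15 was 0.67 ± 0.14 SE without replicate 4 (adjusted p = 0.113), that of Irf7 0.65 ± 0.14 SE (0.126), that of Usp18 0.55 ± 0.089 SE (0.0722) and that of Irf9 0.21 ± 0.032 SE (0.0683). In all, the log2 difference of 14 members moved by over 1.5 times or changed sign without replicate 4. Beside Rsad2, Cmpk2 and Trim25 these were Ifit1 (0.51 without it), Ifi44 (0.31), Trim30a (0.25), Herc6 (0.23), Sp100 (0.22), Mx2 (0.21), Eif2ak2 (0.10), Parp12 (0.10), Ifi27 (0.035), Trafd1 (0.0065) and Mx1. For Mx1 the difference was 0.13 ± 0.17 SE (adjusted p = 0.721). Of the 6 members that exceeded 1.5-fold with all samples, Isg15, Irf7, Ifit1, Usp18, Zbp1 and Bst2, only Isg15 and Irf7 did so without replicate 4.

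**Figure D3:**
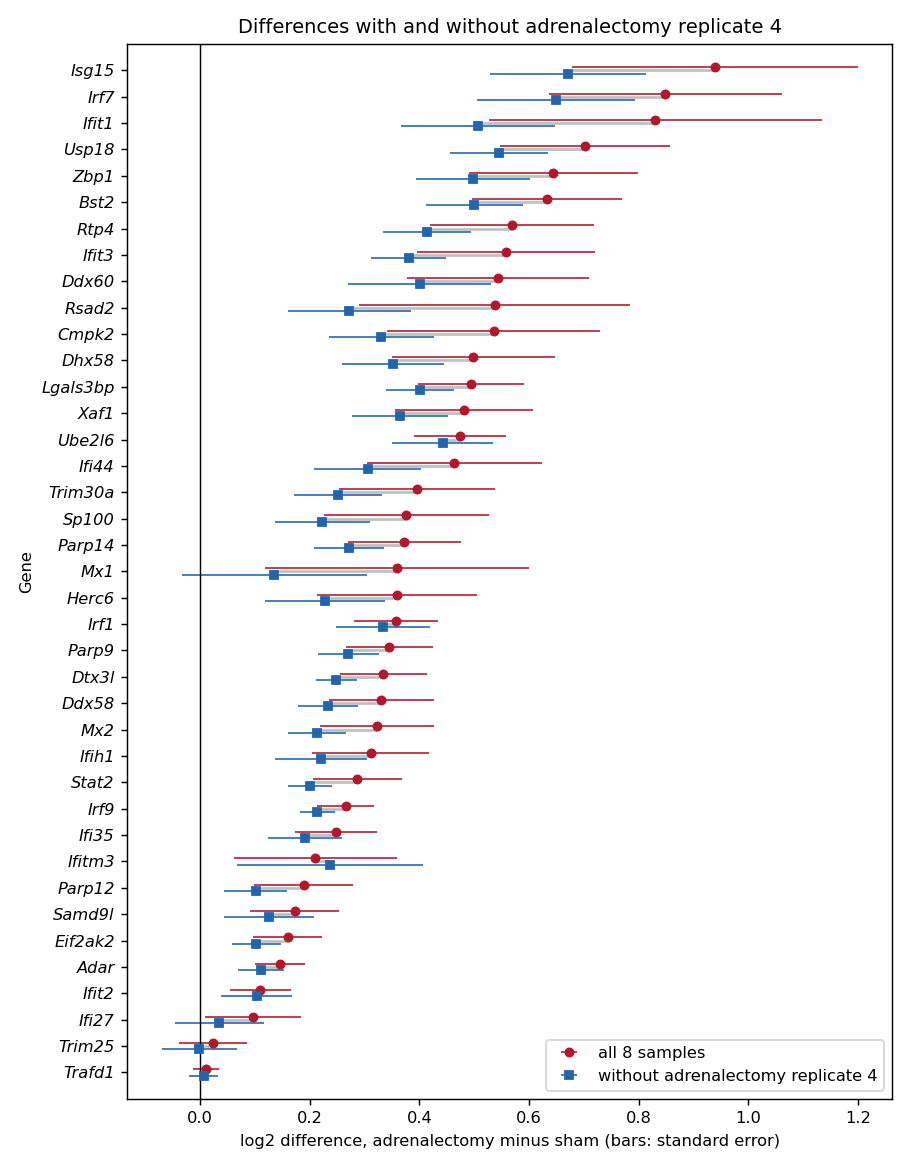
Log2 difference between adrenalectomy and sham for each of the 39 genes, with its standard error, from all 8 samples (red circles) and without adrenalectomy replicate 4 (blue squares). The squares lie to the left of the circles for 38 genes and mostly stay above 0, with medians of 0.36 and 0.25.

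Taken as lists, the genes upstream of the response had median differences near 0, and single genes differed more. Of 18 interferon genes looked up, only Ifne, an epithelial interferon, passed the filter on low values, at a log2 value of 4.34 in sham and 4.38 in adrenalectomy samples (adjusted p = 0.263). Ifnb1 and 9 of the interferon alpha genes were listed at 0 in all 8 samples, and a stomach RNA pool at this unknown depth cannot show whether a few cells made them. None of 11 receptor, JAK and STAT genes was called, with a median log2 difference of -0.0061. Ifnar1 differed by 0.08 (adjusted p = 0.113) and Ifngr1, a receptor chain for interferon gamma, by -0.24 (adjusted p = 0.104). In both genes the groups did not overlap. Jak2 differed by -0.10 (adjusted p = 0.281). None of 18 tested genes of the sensing and induction pathway was called, with a median log2 difference of 0.04. Mb21d1, which encodes the DNA sensor cGAS and is itself interferon-induced, differed by 0.20 without overlap of the groups (adjusted p = 0.0826). Tlr9 differed by 0.11, Traf3 by 0.08 and Ikbke by 0.10, with overlap.

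Of 14 negative regulators 2 rose, against 0.930% of tested genes called higher. These were Socs1, which blocks JAK kinases, by 0.20 (adjusted p = 0.0398), and the phosphatase gene Ptpn2, which acts on JAK and STAT proteins, by 0.18 (adjusted p = 0.0483). The median of the 14 was 0.02. The call of Socs1 held in 7 of 21 other settings and that of Ptpn2 in 6, and both were lost without adrenalectomy replicate 4 (adjusted p = 0.0983 and 0.120). Their log2 differences without it were 0.181 and 0.179, still without overlap of the groups. In all, 53 genes were called without it, against 289 with all samples. In the oligoadenylate synthetase family 2 of 9 tested genes rose, against the same 0.930% of tested genes. These were Oas1g, by 0.83 (adjusted p = 0.0365), and its paralog Oas1a, by 0.76 (adjusted p = 0.0398). The mean of the 9 was highest in adrenalectomy replicate 4, at 10.32 against 9.72 to 10.08. Oas1g was still called without replicate 4 (adjusted p = 0.0472) and Oas1a was not (0.0683). None of 18 Gbp and Irg genes was called, but all 18 had a higher mean after adrenalectomy, against 49.5% of tested genes. With a higher mean, 11 had an unadjusted p under 0.05 (9.73% of tested genes) and 8 had groups that did not overlap (6.30%). The median log2 difference of the 18 was 0.34. Their mean was 8.46 to 8.66 in sham samples. It was highest in adrenalectomy replicate 1, at 9.09, with 8.94 in replicate 4 and 8.74 and 8.72 in replicates 2 and 3, so the order of the samples was not that of the 39 genes.

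Some leukocyte markers rose in the same comparison. Of 20 macrophage and monocyte markers 6 rose, against 0.930% of tested genes called higher, and 17 had a higher mean, against 49.5%. Among the 6 were Adgre1, which rose by 0.36 (adjusted p = 0.0161), and Csf1r, by 0.52 (adjusted p = 0.0223). The mean of the 20 was 9.08 to 9.15 in sham and 9.39, 9.29, 9.26 and 9.43 in adrenalectomy replicates 1 to 4. Ptprc, the common leukocyte antigen CD45, rose by 0.41 (adjusted p = 0.0314), the only one of 10 tested lymphocyte markers called, and 9 more, Cd3e and Cd8a among them, were below the filter on low values. Without adrenalectomy replicate 4 Ptprc, Adgre1 and Csf1r were not called (adjusted p = 0.0683, 0.0602 and 0.0683), at log2 differences of 0.36, 0.35 and 0.48, and of 21 other settings their calls held in 8, 14 and 11. Plasmacytoid dendritic cells are a main source of interferon alpha. Of their 12 markers, Siglech and Ccr9 among them, all passed the filter on low values and none was called. The median log2 difference was -0.0097, and 6 had a higher mean. Of the 12, 3 had an unadjusted p under 0.05 with a higher mean, against 9.73% of tested genes. These were Lair1 at 0.20 (adjusted p = 0.0597), without overlap, and Spib at 0.22 and Irf8 at 0.19, with overlap. Lair1 was called in 3 of 21 other settings. Tcf4 differed by -0.07, with all adrenalectomy values below the sham values. The mean of the 12 was 8.37 to 8.47 in sham and 8.42 to 8.50 in adrenalectomy samples.

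The mean of the 39 interferon-stimulated genes differed by 0.33 between adrenalectomy replicates 3 and 4 and by 0.54 between replicates 2 and 4. The mean of the macrophage markers differed by 0.17 and 0.13 between the same samples. In bulk samples, more cells of a type and more RNA per cell cannot be told apart, and the part of leukocyte number in the interferon-stimulated genes was not tested.

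**Figure D4:**
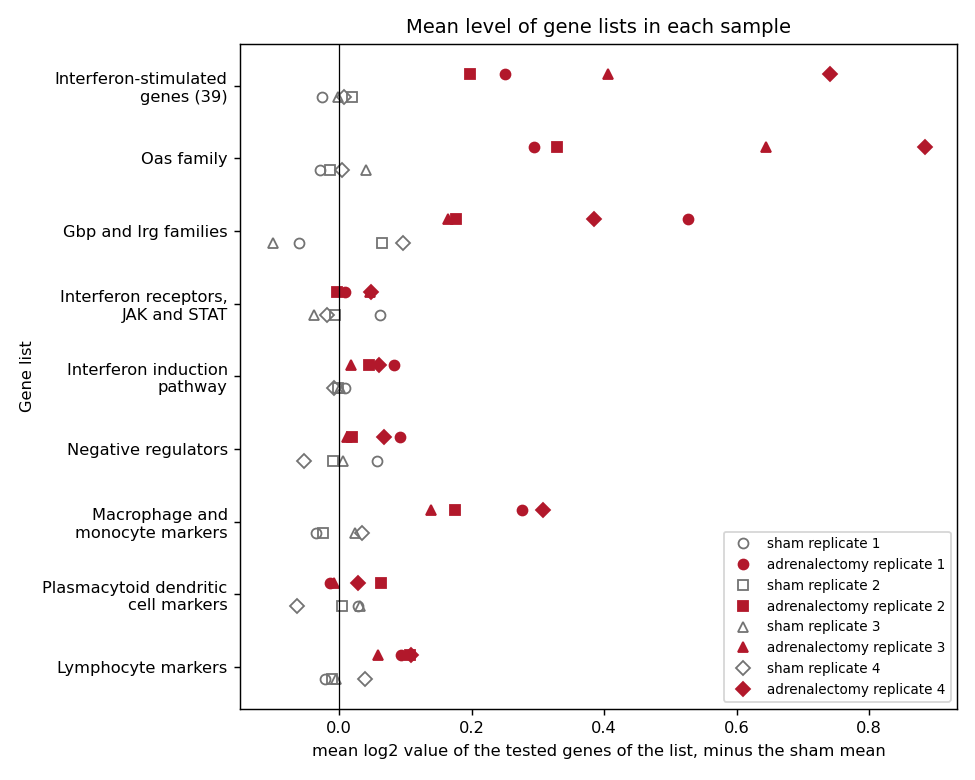
Mean log2 value of the tested genes of each list minus its sham mean, for each of the 8 samples (open grey: sham, filled red: adrenalectomy, shapes: replicate number). Adrenalectomy replicate 4, the filled diamond, stands at 0.74 for the interferon-stimulated genes with the other 3 at 0.20 to 0.41, and at 0.31 for the macrophage markers with the others at 0.14 to 0.28.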

How the data were processed

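RNA was extracted with Trizol and columns, and libraries were made with an Illumina TruSeq kit and sequenced on a NextSeq500, per the labels' protocols. Trim Galore, STAR, featureCounts, DESeq2 and mouse build mm9 are named in the submitters' processing notes, while order, settings, versions, annotation and strandedness were not given in the sources used here. What the authors deposited were log2 values normalized between samples, with the transformation not named, so no count test was possible and the depth is unknown.

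Of 24507 rows, 26 with names turned into dates were left out. The 8 columns of these samples were used, and 8 columns with other sample names were not. A linear value is 2 to the power of the log2 value. The comparison used limma (version 3.58.1, R 4.3.3), an intensity trend, group as the only term and two-sided p-values adjusted with the Benjamini-Hochberg method over the 16889 tested genes, at a threshold of 0.05. The code was tested on simulated data. The members, the lists and the rule for named genes were chosen with earlier results of these data known. Values per sample are given for the 3 members of smallest and the 1 of largest p in each role, for Isg15, Irf9, Stat2, Usp18, Mx1 and Bst2, and for a few members chosen after their values were seen. From other lists, the stomach markers apart, at most 4 genes of smallest p were named, and Siglech, Ccr9, Cd3e and Cd8a were added after their values were seen. Stomach markers were named by rank or after their values were seen. One gene outside the list is not reported here. Alternatives covered the filter, a pseudocount, normalization, the variance model, a replicate block, an exact permutation test, marker scores as covariates and samples left out. Promoter sequences are from RefSeq, build GRCm38.p6, which is not the authors' build.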

Additional observations from a re-analysis of the deposited data

Results flagged for a closer look

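Among 80 groups of 4 samples examined, the 39 genes and their mean in each operation group, 4 held a sample whose gap to its nearest neighbour took up more of the range of the group than Dixon's critical value allows, and chance gives about 1 in 20. In adrenalectomy replicate 4, Ifit3 was at 10.79 with the nearest sample at 10.10 (gap 0.944 of the range), Dtx3l at 11.53 with the nearest at 11.21 (0.871), and Mx1 at 11.47 with the nearest at 10.65 (0.836). In sham replicate 3, Parp9 was at 11.00 and the other sham samples were all at 11.05 (0.905), a range of small size on the log2 scale.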

How the results depend on the processing

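The median log2 difference of the 39 genes was above 0 under all 21 alternatives, 0.25 to 0.44 with 1 sample left out, 0.48 after adjusting for the liver score, and 0.45 when 3 samples (adrenalectomy replicate 1, sham replicates 2 and 3) were omitted. With 1 sample left out, the groups did not overlap for 25 to 28 of the 39, 0 or 1 of the 39 was called, and 27 to 633 genes were called in all, against 289. The share of tested genes without overlap and with adrenalectomy higher was 6.30% with all 8 samples and 7.58% without adrenalectomy replicate 4. It is not given for the other samples left out. The number of the 39 called was 0 with no filter on low values (170 genes in all), 1 with a pseudocount of 10, 1 after quantile normalization, 1 after median centring (156 in all), 1 with no intensity trend, 4 with sample quality weights (624 in all) and 6 after adjusting for the liver score (124 in all). It was 0 of 0 genes in the exact permutation test, whose smallest p of 0.0286 is reached by too few genes to pass the adjustment and which gave 2100 genes and 25 of the 39 at an unadjusted p under 0.05, 0 of 0 after adjusting for the score of squamous and muscle markers, and 0 of 0 with the 3 samples omitted, where limma, in these last 2, gave 2265 and 1822 genes at an unadjusted p under 0.05, among them 19 of the 39 in each, and the median log2 difference after adjusting for squamous and muscle markers was 0.36. It was 3 at a mean linear value of at least 100 and 3 with robust moderation. The 6 with the liver score were Adar, Lgals3bp, Parp14, Isg15, Irf7 and Ddx60. All genes called split into 157 higher and 132 lower, and after median centring into 69 and 87. Overlap of the groups was not computed with covariates. The cause of these changes was not tested.

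With the replicate number as a block, limma called 4 genes and 0 of the 39. Of the 39, 28 had an unadjusted p under 0.05 with a higher mean, and 2803 of the 16889 tested genes had one in either direction. The labels give same-numbered samples a shared number and do not say whether they were paired. Their deviations from the group means correlated at -0.29, 0.45, -0.12 and -0.64 over the tested genes. These correlations cannot show whether such samples shared a batch, since they also carry the tissue differences between samples. The sign of Trafd1 turned after median centring (-0.0020) and without sham replicate 1 (-0.00051), and that of Trim25 after adjusting for squamous and muscle markers (-0.023) and on omitting sham replicate 2 (-0.0030), sham replicate 4 (-0.016) or adrenalectomy replicate 4 (-0.0010). With 1 sample left out, the log2 difference of Trafd1 ranged up to 0.025 and that of Trim25 up to 0.081. Of the 39, 30 were called under no alternative. Whether the unnamed transformation shrinks differences of low genes was not tested, and without depths no counting error can be given.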

Other observations

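The members varied together to different degrees. Over the 8 samples, taken as deviations from their group means, 21 of the 39 genes had a Pearson correlation over 0.9 with the mean of the other 38, with Irf9 and Cmpk2 at 0.98, while Ifitm3 was at -0.29, Ifit2 at 0.11, Trafd1 at 0.17, Irf1 at 0.22, Trim25 at 0.29 and Ube2l6 at 0.41. These values are a description, since the points share libraries and adrenalectomy replicate 4 weighs heavily in them. Ube2l6, 1 of the 2 genes that passed over all genes tested, was thus among those that followed the others least within groups.

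By the same measure, the 10 tested genes outside the list most like the mean of the 39 included Terb1, Csprs, Trim30d, Oasl2, Pde9a, Limk1, Gpr34, Btnl2 and Nsun2, with correlations of 0.96 to 0.99. None of these was called between the groups. Oasl2 went from a mean of 10.93 to 11.64, without overlap between the groups. Terb1 differed by -0.0020 between the groups, at 5.05 in adrenalectomy replicate 4 against a mean of 4.96 in the other 3, and Trim30d, a paralog of Trim30a, was at 9.67 in replicate 4 against a mean of 9.17 in the other 3.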
